A study of Mus musculus with 7 samples.

Results

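The T cell receptor gene loci were followed through a plasmid reporter assay. The host cells were P5424, a line of immature T cells from mouse. The loci were taken by position in mouse build mm9, as chr14:52900000-55000000 for Tcra and Tcrd with the enhancer that lies before Dad1, chr6:40800000-41550000 for Tcrb, and chr13:19250000-19460000 for Tcrg. Each interval was cut into 500 bp bins, and a bin was tested if it held at least 50 reads in each of the 3 plasmid inputs, at positions with a mapping quality of 30 or more. That left 14 of the 2088 bins with any read in these loci, against 30139 of 2210636 in the whole series. Of the 14, 10 lie in the Tcra and Tcrd interval, 2 in Tcrb and 2 in Tcrg. They are numbered here in order of position within each interval.

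The study put captured DNase hypersensitive sites into a self-transcribing reporter (CapStarr-seq). A fragment is copied into the RNA it helps to make, so its reads in RNA, divided by those in the plasmid pool, measure its output. The 7 samples form 7 groups of 1 library. They are reporter RNA from a construct labelled pR-Ea, from pPGK in a library titled PMA_I, from pPGK (the phosphoglycerate kinase promoter) and from SCP1 (super core promoter 1), and 1 input for each of pR-Ea, pPGK and SCP1. All come from P5424 cells grown in RPMI medium with serum, and no source used here gives the number of cultures or plasmid pools. All 7 samples carry PMA and ionomycin in their treatment label, and only the title sets the PMA_I library apart as stimulated. PMA is a phorbol ester and ionomycin a calcium ionophore, which together mimic signalling from the T cell receptor. The labels do not spell out pR-Ea. Ea, or Eα, is also the usual short name of the Tcra enhancer, and whether the construct holds a copy of that element is not given in the sources used here.

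T cell receptor genes are assembled in the thymus by recombination of V, D and J segments, which the Rag recombinase cuts only where chromatin is open. Tcrb, Tcrg and Tcrd are assembled early and Tcra later, at the double positive stage of thymocytes. Each locus has an enhancer near its constant gene that drives transcription of the unrearranged segments and opens them to recombination. The Tcra enhancer, which binds RUNX, ETS, TCF/LEF and CREB family factors, is the best known of them. It lies downstream of the Tcra constant gene, and in RefSeq's gene order for build GRCm38 Dad1, a subunit of the oligosaccharyltransferase, is the gene that follows Trac. The deposited files carry no gene names and no annotation of build mm9 was used, so all elements are given by position. The name alpha enhancer is used below for the bin and window taken as this enhancer, and that identity was not tested. The reporter carries fragments outside their own chromatin, and does not measure how the elements act in the locus.

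Activity is given as the log2 of a bin's share of reporter reads over its share of input reads, so 0 is the average of the tested bins and 1 is 2-fold above it. Each value has a standard error over distinct read positions (SE), which takes positions as independent. A bin was called above or below input when the log2 value was at least 1 in size and an exact 95% interval of the read counts excluded equality. Each group held 1 library, so no value has a replicate check and no p-value is given. Both the SE and the intervals leave out variation between cultures. Over the series, reads at used positions numbered 49173785, 55455513, 45976560 and 52611797 in the pR-Ea, pPGK PMA_I, pPGK and SCP1 reporters, and 18040593, 16783047 and 43310924 in the pR-Ea, pPGK and SCP1 inputs. The median activity of all tested bins was -0.03 with pR-Ea, 0.06 in pPGK PMA_I, 0.06 with pPGK and -0.15 with SCP1. No neutral insert set a baseline, so a bin below input is not shown to silence, nor one above it to enhance.

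Of the 14 receptor bins, the alpha enhancer was the least active with pR-Ea and the most active with SCP1. Its tested bin was taken, by position, to be Tcra and Tcrd bin 6, chr14:54847001-54847500. That bin held 294 reporter reads against 226 input reads with pR-Ea, 674 against 110 in pPGK PMA_I, 499 against 110 with pPGK, and 6390 against 930 with SCP1. Its log2 activity was -1.07 (SE 0.21) with pR-Ea, 1.22 (SE 0.18) in pPGK PMA_I, 0.90 (SE 0.36) with pPGK and 2.43 (SE 0.16) with SCP1. The bin was thus 2.10-fold below input with pR-Ea and 5.40-fold above it with SCP1. Among all 30139 tested bins, 2167 were at or below it with pR-Ea and 44 were at or above it with SCP1, the bin itself included.

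**Figure D1:**
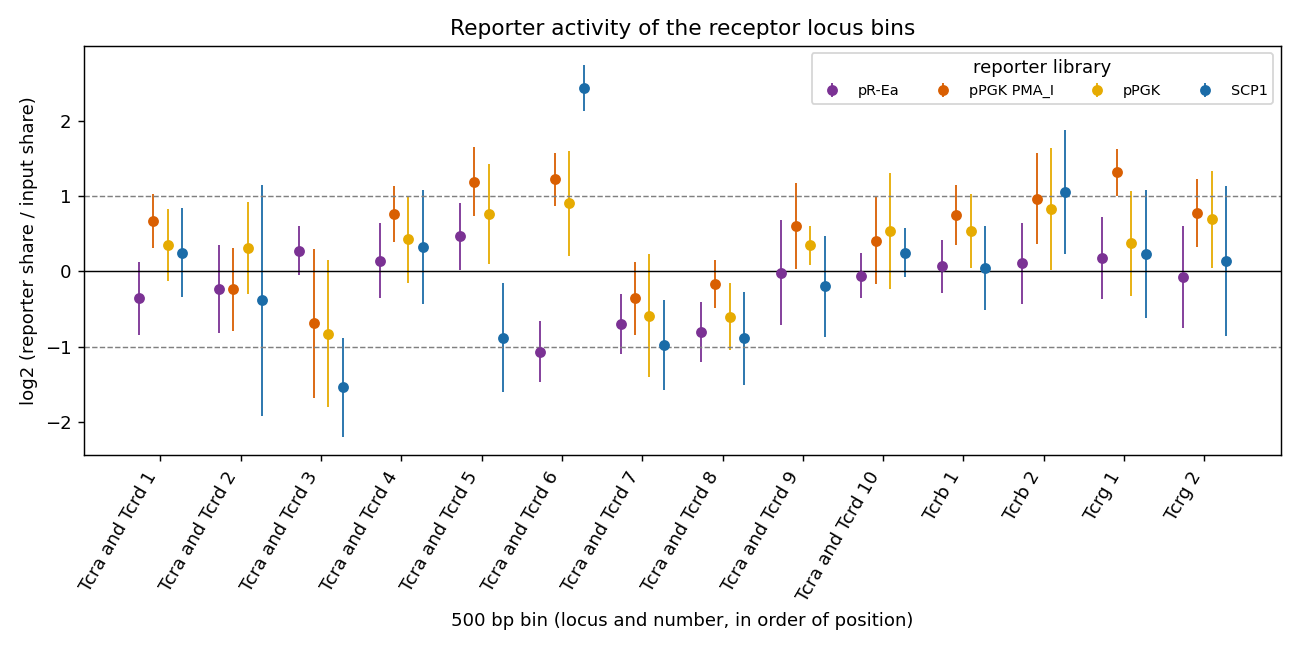
Log2 activity (y axis) of the 14 tested receptor bins (x axis, numbered within each locus) in the 4 reporter libraries; points are single libraries, bars are 95% intervals over read positions, and dashed lines mark 2-fold. Tcra and Tcrd bin 6, taken as the alpha enhancer, is at -1.07 with pR-Ea and 2.43 with SCP1, and most other bins lie between the dashed lines.

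A window of 4 consecutive bins, of which bin 6 is the second, was summed to take in its edges. It held 315 reporter and 231 input reads with pR-Ea, 762 and 119 in pPGK PMA_I, 559 and 119 with pPGK, and 6534 and 1039 with SCP1. Activity of the window was -0.9999 on the log2 scale (95% counting interval -1.25 to -0.75, SE 0.20) with pR-Ea, just short of the threshold that bin 6 passed, and 1.28 (1.01 to 1.59, SE 0.19) in pPGK PMA_I. It was 0.95 (0.67 to 1.26, SE 0.34) with pPGK and 2.31 (2.21 to 2.40, SE 0.15) with SCP1. The pPGK input rested on few plasmid fragments, with 15 read positions in the window against 57 in the pR-Ea input and 139 in the SCP1 input. Of the pPGK input reads of bin 6, 37.5% (exact 95% interval 30.3% to 45.1%) lay at positions left out for low mapping quality. Without that filter the window was at 0.68 with pPGK and 1.29 in pPGK PMA_I.

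The window also stood out within its own locus, where no scaling between libraries enters. It held 2.31% (exact 95% interval 2.07% to 2.58%) of the interval's reporter reads against 4.36% (3.82% to 4.94%) of its input reads with pR-Ea. In pPGK PMA_I the window took 3.96% (3.69% to 4.25%) of reporter reads and with pPGK 3.80% (3.50% to 4.13%), both against 2.54% (2.11% to 3.03%) of the shared input. With SCP1 it took 33.0% (32.3% to 33.6%) of the reporter reads, against 7.68% (7.24% to 8.14%) of the input. The interval as a whole, scaled to all used reads, had a log2 activity of -0.09 with pR-Ea, and of -0.06 without the window. With SCP1 the interval was at 0.27, and at -0.19 without the window.

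**Figure D2:**
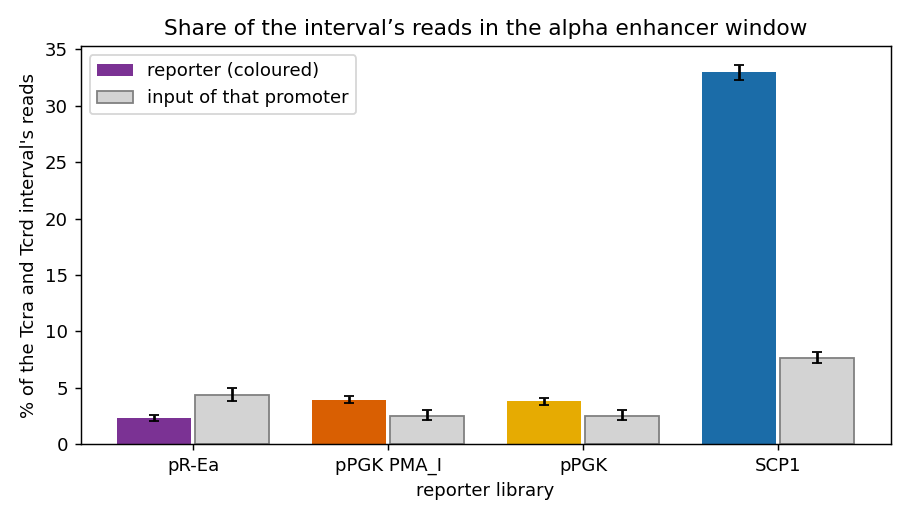
Share of the Tcra and Tcrd interval's reads that fell in the 2000 bp alpha enhancer window (y axis, percent), for the reporter (coloured) and the input (grey) of each library; bars are exact 95% intervals that cover counting error only. The window holds 2.31% of pR-Ea reporter reads against 4.36% of the input, and 33.0% of SCP1 reporter reads against 7.68% of the input.

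The comparison between promoters asks whether the same element gave the same output from each construct. On input-divided activity, 1 of the 14 receptor bins was lower with pR-Ea than SCP1, where 6.12% of all tested bins were, and this was the alpha enhancer. Its difference was -3.50 (SE 0.26), an 11.3-fold lower activity, and 8 of the 30139 tested bins had a difference as low or lower, the bin itself included. Against pPGK the same bin was lower with pR-Ea by -1.97 (SE 0.41) on the log2 scale, again as 1 of 14, where the background was 6.88%. With pPGK it was lower than with SCP1 by -1.53 (SE 0.39), as 1 of 14 against a background of 3.33%. That last call was lost when distinct positions were counted (-0.40), and both differences of pR-Ea stayed past the threshold but were smaller, at -1.58 against SCP1 and -1.18 against pPGK. Against input, the pR-Ea call itself was lost in that setting. For the whole window the 3 differences were -3.31 (SE 0.25), -1.95 (SE 0.39) and -1.35 (SE 0.37). These comparisons share libraries, and with 1 library per promoter they compare libraries rather than promoters.

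High activity with SCP1 did not as a rule go with low activity with pR-Ea. Of the 82 tested bins with an SCP1 log2 activity of at least 2, 3 were called below input with pR-Ea, the alpha enhancer among them, and 5 were called above it. Over all tested bins 8.27% were below input with pR-Ea and 0.8% above it. The median log2 activity of the 82 bins was 0.50 with pR-Ea and 1.45 with pPGK. In the whole series 18 of the 1109 bins called above input with SCP1 were called below input with pR-Ea, against the same 8.27%.

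**Figure D3:**
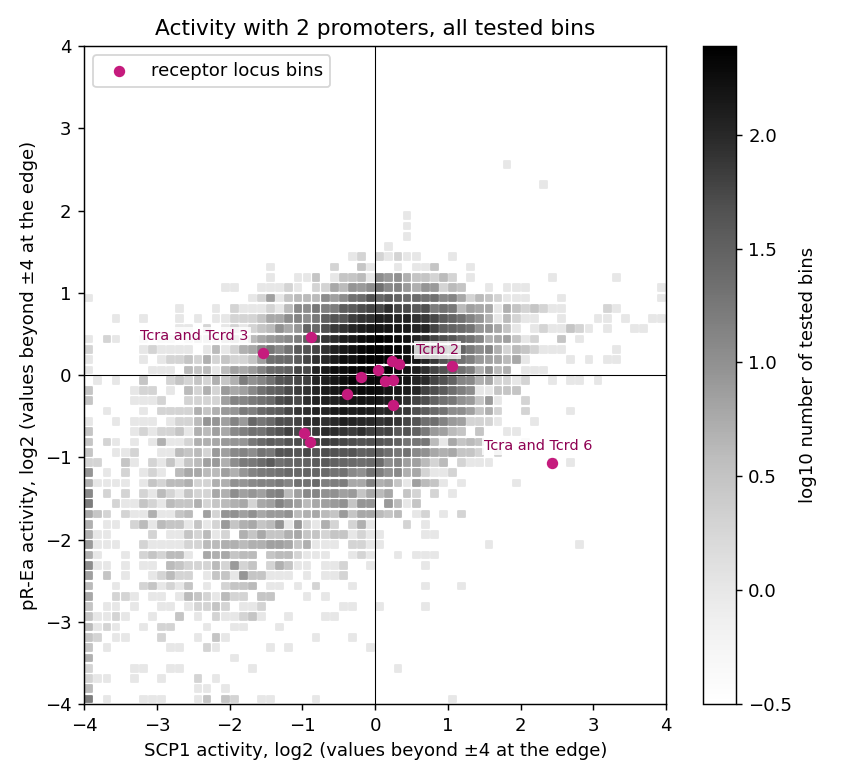
Log2 activity with pR-Ea (y axis) and with SCP1 (x axis) for all 30139 tested bins (grey squares, darker for more bins on a log10 scale) and the 14 receptor bins (points). Tcra and Tcrd bin 6 lies at -1.07 with pR-Ea and 2.43 with SCP1, below most bins of similar SCP1 activity.

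The difference at the alpha enhancer was seen on both strands. Plus strand fragments of the window gave a log2 activity of -1.22 with pR-Ea and 2.25 with SCP1, and minus strand fragments gave -0.86 and 2.35. The inputs of pR-Ea and SCP1 shared 11 read positions in the window. At these the reporter gave 37 reads against 47 input reads with pR-Ea and 491 against 92 with SCP1, a log2 difference of -3.84. The position with most reporter reads in bin 6 held 46 of 294 reads with pR-Ea, and 346 of 6390 with SCP1. Leaving out each library's top position, here and below, took away its reporter reads and kept its input reads. Over all tested bins, calls below input with SCP1 rose from 14.5% to 18.5% in that setting. Without the top position of each library the window was at -1.14 with pR-Ea and 2.35 with SCP1. Counting distinct positions in place of reads gave -0.26 and 1.14.

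Within the element, 2 stretches of 100 bp held 20 input reads or more in every input. At chr14:54847201-54847300 the log2 activity was -1.59 (95% counting interval -1.997 to -1.19) with pR-Ea, 1.21 (0.89 to 1.57) in pPGK PMA_I, 0.57 (0.23 to 0.94) with pPGK and 2.53 (2.35 to 2.73) with SCP1. At chr14:54847301-54847400 it was -1.03 (-1.51 to -0.54), 1.37 (0.75 to 2.19), 1.55 (0.93 to 2.36) and 1.995 (1.83 to 2.17) in the same 4 libraries. The order of pR-Ea below both pPGK libraries and SCP1 above them held in both stretches, though the pPGK and SCP1 intervals overlap in the second. The highest SCP1 value, 3.75 (3.30 to 4.30), was at chr14:54847101-54847200, from 647 reporter and 37 input reads. No pPGK input read fell there, so pPGK gives no value for that stretch. The bin before bin 6, the first of the window, ran the other way on few reads, with 21 reporter reads against 5 input reads with pR-Ea and 50 against 82 with SCP1.

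The plasmid pools also differed at this site. In RPM of the reads in tested bins, the window held 22.7 in the pR-Ea input, 11.4 in the pPGK input and 39.6 in the SCP1 input. In the reporters it held 11.4 with pR-Ea, 27.9 in pPGK PMA_I, 22.2 with pPGK and 196 with SCP1. The pR-Ea input thus lay between the other inputs at the window, while its reporter was the lowest of the 4.

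**Figure D4:**
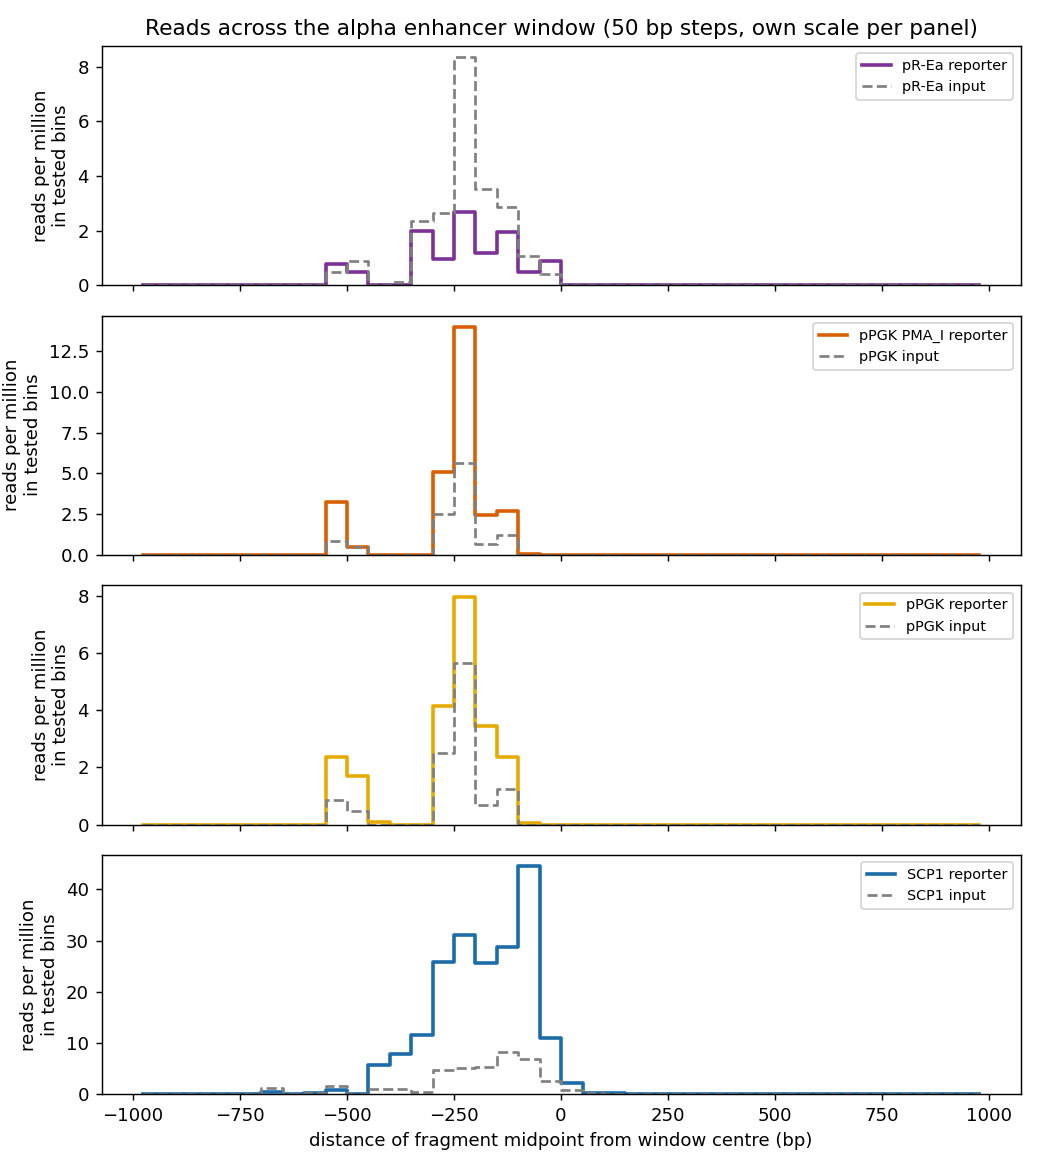
RPM, scaled to the reads in tested bins (y axis, own scale in each panel) in 50 bp steps across the alpha enhancer window, by distance of the fragment midpoint from the window's centre (x axis, bp), for each reporter (solid) and its input (dashed). In the step that starts 249 bp before the centre, the reporter and input are at 2.67 and 8.35 RPM with pR-Ea, 13.97 and 5.65 in pPGK PMA_I, 7.98 and 5.65 with pPGK, and 31.1 and 5.15 with SCP1; some thinly covered outer steps run the other way.

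Among the other Tcra and Tcrd bins, 2 differed between promoters in the opposite direction. Bin 3, chr14:52936001-52936500, held 331 reporter reads against 100 input reads with pR-Ea, 125 against 77 in pPGK PMA_I, 105 against 77 with pPGK and 79 against 182 with SCP1. On the log2 scale its activity was 0.27 (SE 0.17), -0.69 (SE 0.50), -0.83 (SE 0.50) and -1.54 (SE 0.34) in that order. It was the only receptor bin called below input with SCP1, as 1 of 14 against a background of 14.5%, and was at -0.96 when distinct positions were counted. Scaled to all used reads, bin 3 was also called below input in pPGK PMA_I (-1.03) and with pPGK (-1.01). It was higher with pR-Ea than with SCP1 by 1.81 (SE 0.37), and higher with pR-Ea than with pPGK by 1.10 (SE 0.53). The call against pPGK was lost with distinct positions counted (0.87), when each line was judged by its own mapping quality (0.95) and without a mapping quality filter (0.71). Positions left out for low mapping quality held 33.6% (exact 95% interval 26.8% to 40.7%) of its pPGK PMA_I reporter reads and 18.2% (10.9% to 27.4%) of its pPGK input reads.

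Bin 5, chr14:54805501-54806000, held 198 reporter reads against 52 input reads with pR-Ea, 362 against 60 in pPGK PMA_I, 247 against 60 with pPGK and 159 against 231 with SCP1. Activity in log2 was 0.46 (SE 0.23) with pR-Ea, 1.19 (SE 0.23) in pPGK PMA_I, 0.75 (SE 0.34) with pPGK and -0.88 (SE 0.37) with SCP1. SCP1 was thus the lowest library here and the highest at the alpha enhancer. The bin was higher with pR-Ea than with SCP1 by 1.34 (SE 0.43), which with bin 3 makes 2 of 14 receptor bins against a background of 10.3%; with distinct positions counted the difference was 0.42. It was higher with pPGK than with SCP1 by 1.63 (SE 0.50), as 1 of 14 against 9.61%. The pPGK input of bin 5 rested on 6 read positions, and 17.8% (exact 95% interval 9.84% to 28.5%) of its reads were left out for low mapping quality. The top position held 71 of the 247 pPGK reporter reads, and 134 of the 362 in pPGK PMA_I. The difference of pPGK from SCP1 was 1.51 with distinct positions counted and 1.47 without each library's top position. Bin 3 alone was higher with pR-Ea than with pPGK, as 1 of 14 against 6.07%.

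Bins 7 and 8, chr14:54873001-54873500 and chr14:54873501-54874000, adjoin each other beyond the enhancer and were negative in all 4 libraries without reaching a call. With SCP1, bin 7 was past the threshold without each library's top position (-1.10), where 18.5% of all tested bins were called below input. It was also past it with every listed line counted (-1.01). Without a mapping quality filter both bins were above 0 in pPGK PMA_I, at 0.28 and 0.47. Bin 7 had a log2 activity of -0.70 (SE 0.21) with pR-Ea, -0.36 (SE 0.25) in pPGK PMA_I, -0.59 (SE 0.42) with pPGK and -0.98 (SE 0.30) with SCP1. Bin 8 had -0.81 (SE 0.20), -0.17 (SE 0.16), -0.60 (SE 0.23) and -0.89 (SE 0.31) in the same order. Their SCP1 counts were 452 reporter reads against 702 input reads in bin 7, and 316 against 462 in bin 8. No read of either bin lay at a position left out for mapping quality, so removing the filter changed only the totals used for scaling.

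None of the bins 1, 2, 4, 9 and 10 reached a call in any library. Bin 1, chr14:52924501-52925000, was at -0.36 (SE 0.25) with pR-Ea, 0.66 (SE 0.18) in pPGK PMA_I, 0.34 (SE 0.24) with pPGK and 0.24 (SE 0.30) with SCP1. Bin 4, chr14:54743001-54743500, was at 0.14 (SE 0.26), 0.76 (SE 0.19), 0.42 (SE 0.29) and 0.32 (SE 0.38) in that order. Bin 9, chr14:54977501-54978000, was at -0.02 (SE 0.36), 0.60 (SE 0.29), 0.34 (SE 0.13) and -0.20 (SE 0.34). All 3 were highest in pPGK PMA_I.

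Bin 10, chr14:54980501-54981000, was second to the enhancer in SCP1 reporter reads among the receptor bins. It held 724 reporter reads against 276 input reads with pR-Ea, 531 against 153 in pPGK PMA_I, 536 against 153 with pPGK and 1269 against 841 with SCP1. Its log2 activity stayed close to the average, at -0.06 (SE 0.16), 0.40 (SE 0.29), 0.53 (SE 0.39) and 0.25 (SE 0.17). Bin 2, chr14:52935501-52936000, was at -0.23 (SE 0.30), -0.24 (SE 0.28), 0.31 (SE 0.31) and -0.39 (SE 0.78) in the same order. A single position held 37 of its 67 SCP1 reporter reads. Without each library's top position, whose input reads were kept, it was at -1.40 with SCP1 and called below input, as were 18.5% of all tested bins. It was then higher than SCP1 by 1.02 with pR-Ea and by 1.79 with pPGK. Both were past the threshold, as were 12.3% and 9.35% of all tested bins. Its value with pPGK depended on the strand, at -3.72 from 7 plus strand reporter reads and 0.92 from 348 minus strand reporter reads.

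In Tcrb, both tested bins lie within 2000 bp of each other near the high-coordinate end of the interval. Tcrb bin 2, chr6:41504501-41505000, held 289 reporter reads against 98 input reads with pR-Ea, 273 against 53 in pPGK PMA_I, 230 against 53 with pPGK and 1136 against 431 with SCP1. In log2, its activity was 0.10 (SE 0.27) with pR-Ea, 0.96 (SE 0.31) in pPGK PMA_I, 0.83 (SE 0.42) with pPGK and 1.05 (SE 0.42) with SCP1. It was called above input with SCP1, which with the alpha enhancer makes 2 of 14 receptor bins, where 3.68% of all tested bins were. One read position held 332 of its SCP1 reporter reads, and without each library's top position it was at 0.68 with SCP1 and not called. In that setting 2.88% of all tested bins were called above input with SCP1. The difference of pR-Ea from SCP1 was -0.94 (SE 0.50), short of the threshold. This difference was past the threshold at -1.08 when the median of all tested bins was set to 0. It was also past it with totals of all used reads (-1.01) and without each library's top position (-1.02). With distinct positions counted it was -0.34, where the bin's SCP1 activity was 0.24.

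The neighbouring 500 bp, chr6:41504001-41504500, fell below the input threshold with 25, 30 and 28 input reads in pR-Ea, pPGK and SCP1. As at the alpha enhancer, pR-Ea was the lowest library there and SCP1 the highest. The stretch gave 36 reporter reads with pR-Ea, 220 in pPGK PMA_I, 213 with pPGK and 185 with SCP1. Log2 activity there was -0.94 (SE 0.47), 1.45 (SE 0.35), 1.52 (SE 0.38) and 2.34 (SE 0.49) in that order. The difference of pR-Ea from SCP1 was -3.27 (SE 0.68) and from pPGK -2.45 (SE 0.61). This stretch was singled out after its values were seen and rests on few input reads. Tcrb bin 1, chr6:41503001-41503500, was near the average, at 0.06 (SE 0.18) with pR-Ea, 0.74 (SE 0.20) in pPGK PMA_I, 0.53 (SE 0.25) with pPGK and 0.04 (SE 0.28) with SCP1.

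In Tcrg, the tested bins lie toward the 2 ends of the interval and neither was called with pR-Ea, pPGK or SCP1. Tcrg bin 1, chr13:19269001-19269500, held 251 reporter reads against 81 input reads with pR-Ea, 453 against 69 in pPGK PMA_I, 217 against 69 with pPGK and 167 against 112 with SCP1. Its log2 activity was 0.17 (SE 0.28), 1.31 (SE 0.16), 0.37 (SE 0.35) and 0.23 (SE 0.43) in that order, so that pPGK PMA_I was the highest. Nearly all its reads were on the minus strand, and all 453 of those in pPGK PMA_I. Its pPGK input rested on 6 read positions. Tcrg bin 2, chr13:19454001-19454500, was at -0.07 (SE 0.35) with pR-Ea, 0.77 (SE 0.23) in pPGK PMA_I, 0.69 (SE 0.33) with pPGK and 0.13 (SE 0.51) with SCP1.

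The comparison of pPGK PMA_I with pPGK asks how the stimulus changed output from 1 promoter. None of the 14 receptor bins was called higher, where 0.859% of all tested bins were, and none lower, where 0.425% were. The difference in log2 activity ran from -0.55 (SE 0.15) at Tcra and Tcrd bin 2 to 0.94 (SE 0.26) at Tcrg bin 1. Tcrg bin 1 was higher in pPGK PMA_I at 453 reporter reads, against 217 with pPGK, and fell short of the 2-fold threshold. Positions left out for low mapping quality held 17.5% (exact 95% interval 13.1% to 22.6%) of its pPGK reporter reads. They held 1.09% (0.36% to 2.53%) of its pPGK PMA_I reporter reads, so the filter acted unequally on this bin. Without a mapping quality filter the difference at Tcrg bin 1 was 1.17, past the threshold, and with distinct positions counted it was 0.19, with pPGK itself at 1.42. At Tcra and Tcrd bin 2 the difference was -0.36 with each line judged by its own mapping quality and 0.05 without the filter. It stayed the lowest in both settings, so its size but not its place depended on the filter. With distinct positions counted it was -0.24, and Tcra and Tcrd bin 10 was the lowest at -0.54. Removing the filter also raised the median difference of all tested bins to 0.44. At the alpha enhancer window the difference was 0.33 (95% interval over positions -0.21 to 0.88, SE 0.28), with 0.72 on the plus strand and 0.14 on the minus strand.

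**Figure D5:**
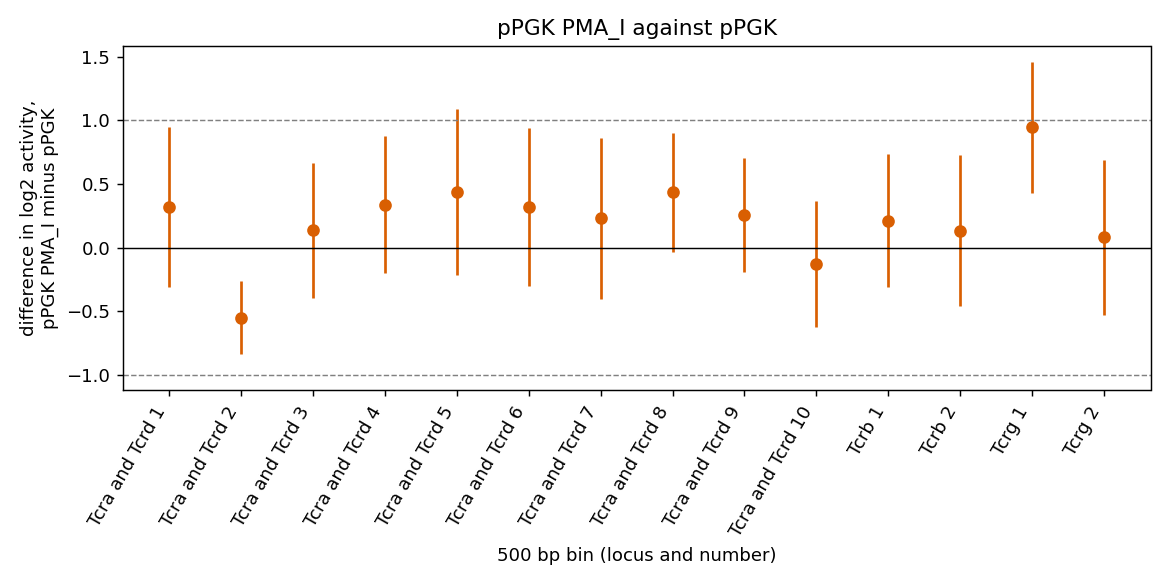
Difference in log2 activity between pPGK PMA_I and pPGK (y axis) for the 14 receptor bins (x axis, numbered within each locus); bars are 95% intervals over read positions and dashed lines mark 2-fold. Tcrg bin 1 is the highest at 0.94 and Tcra and Tcrd bin 2 the lowest at -0.55, and no bin lies past 2-fold.

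The difference between pPGK PMA_I and pPGK was above 0 in 12 of 14 bins, with a median of 0.24, against 56.2% and a median of 0.05 over all tested bins. That count depended on the processing. It was 9 of 14 with totals of all used reads (37.1% of all bins), 7 of 14 with distinct positions counted (48.2%) and 14 of 14 without a mapping quality filter (84.0%). Measured against input, 3 of 14 bins were called above it in pPGK PMA_I, against a background of 7.41%, and none was called below it, against 9.47%. These were the alpha enhancer, Tcra and Tcrd bin 5 and Tcrg bin 1. When counts were scaled to all used reads in place of those in tested bins, the 3 bins were at 0.88, 0.85 and 0.97 and none was called above input. Without each library's top position bin 5 was at 0.81 in pPGK PMA_I and not called, where 4.4% of all tested bins were called above input. Without a mapping quality filter 10 of 14 were called above input there, against 26.7% of all tested bins. With pPGK itself 0 of 14 bins were called above input, against 3.74%, and 0 below, against 9.56%. With pR-Ea 0 of 14 were above, against 0.8%, and 1 was below, against 8.27%. Counting both directions, 1 of 14 was called with pR-Ea against 9.07%, 3 in pPGK PMA_I against 16.9%, 0 with pPGK against 13.3% and 3 with SCP1 against 18.2%. Between libraries the counts were 3 for pR-Ea against SCP1 (background 16.5%), 2 for pR-Ea against pPGK (12.9%), 2 for pPGK against SCP1 (12.9%) and 0 for pPGK PMA_I against pPGK (1.28%).

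The median log2 activity of the 14 bins was -0.04 with pR-Ea, 0.70 in pPGK PMA_I, 0.40 with pPGK and 0.09 with SCP1. Ranked by SCP1 activity, the alpha enhancer came first, and its interval over positions (2.13 to 2.74) did not overlap that of Tcrb bin 2, the next (0.23 to 1.88). Every other pair of neighbours in that order overlapped. In the other 3 libraries all neighbours in the order overlapped. With pPGK the alpha enhancer was again first, at 0.90 against 0.83 in Tcrb bin 2, a gap within their SE. With pR-Ea bin 5 was first at 0.46 and the alpha enhancer last at -1.07. The 10 tested bins of the Tcra and Tcrd interval held 20.3% of the pR-Ea, 23.0% of the pPGK PMA_I, 24.2% of the pPGK and 49.3% of the SCP1 reporter reads of that interval. Of its input reads they held 23.3% with pR-Ea, 27.3% with pPGK and 30.6% with SCP1.

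The 3 bins nearest to the input threshold from below were chr14:54978001-54978500 with 44 reads in its smallest input, chr14:52963001-52963500 with 42 and chr14:54745001-54745500 with 40. Their log2 activities were -0.73, 0.23 and 0.23 with pR-Ea, 0.68, 0.03 and 0.47 in pPGK PMA_I, 1.15, 0.12 and 0.09 with pPGK and -0.82, 0.37 and -0.43 with SCP1. Inside it, the members with the smallest inputs were Tcrg bin 2 with 50 pR-Ea input reads and Tcra and Tcrd bin 5 with 52. In all, 31 further receptor bins held 10 reads or more in every input but not 50. Of these, 0 were called above and 1 below input with pR-Ea, where 3.4% and 13.2% of the 44361 bins of that depth in the series were. In pPGK PMA_I 6 were above and 2 below (22.9% and 9.2%), with pPGK 2 and 1 (11.2% and 10.5%), and with SCP1 3 and 3 (6.24% and 26.1%).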

How the data were processed

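CapStarr-seq of mouse DNase hypersensitive sites was analysed from 4 deposited files, 1 per reporter library. The submitters' processing notes name Bowtie2, SAMtools, bedtools 2.28.0 and build mm9, without roles. Each deposited line is a fragment of 315 bp with a mapping quality score (column 5) and 2 whole-number counts. Reporter counts were taken from column 7 and input counts from column 8, which no label spells out: in both pPGK files, which share an input, column 8 was the same at all 5163016 positions they have in common. The deposited scores began at 30 for SCP1 and pR-Ea and at 0 in both pPGK files, so the authors' filters differed. Positions listed below 30 in any file were dropped. This removed 50.9% (exact 95% interval 50.3% to 51.5%) of pPGK reporter reads and 59.3% (58.4% to 60.2%) of pPGK input reads in the Tcra and Tcrd interval, against 35.6% and 43.9% over all chromosomes. Of pPGK PMA_I reporter reads in that interval it removed 9.60% (9.20% to 10.0%), so the filter acts unequally on the comparison of pPGK PMA_I with pPGK.

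Where both strands share a 5′ position, the files repeat its counts on each strand; such reads were counted once and divided between the strands. Fragments were placed by midpoint in bins of 500 bp, and counts were scaled to the total over tested bins (pseudocount 1). Activity intervals are exact (Clopper-Pearson, scipy 1.17.1 in Python 3.11.15), and calls on differences use normal 95% intervals of the counts. Both cover counting error only, since reads are not independent molecules. The SE counts positions per strand. Every tested bin is named. The members, window and lists were chosen with earlier results of these data known. Motifs and sequences were not analysed here, because no genome of build mm9 was used.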

Additional observations from a re-analysis of the deposited data

Results flagged for a closer look

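The bin taken as the alpha enhancer, chr14:54847001-54847500, was above input with some promoters and below it with another. Its log2 activity was -1.07 with pR-Ea and 2.43 with SCP1, a difference of -3.50. It was 1.22 in pPGK PMA_I, and the difference of pR-Ea from that library was -2.29. With 1 library in each group, neither difference was tested against replicates. The samples come in groups of 1, so no sample could be set against others of its group.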

How the results depend on the processing

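No paired analysis was possible because every group has 1 library, and no replicate was left out for the same reason. The alpha enhancer bin stayed called above input with SCP1, and lower with pR-Ea than with SCP1, under each alternative in which the same bins were recomputed. Counting distinct positions gave the alpha enhancer window -0.26 with pR-Ea, 0.46 in pPGK PMA_I and 1.14 with SCP1. Its differences were then -1.40 for pR-Ea against SCP1, -1.01 for pR-Ea against pPGK, -0.39 for pPGK against SCP1 and, with the sign reversed, -0.28 for pPGK PMA_I against pPGK; the cause was not tested. The called bins then numbered 0 with pR-Ea (1.58% of all tested bins), 1 in pPGK PMA_I (2.35%) and 2 with pPGK (3.31%). They numbered 1 with SCP1 (5.53%) and 1 for pPGK against SCP1 (3.43%). Totals of all used reads gave the window 0.94 in pPGK PMA_I. Tcra and Tcrd bin 3 was then the 1 bin called there and with pPGK, below input in both (backgrounds 17.2% and 12.9%). With the median of all bins at 0 the window was at 2.46 with SCP1, and the tested bin alone gave 2.43. A minimum of 10 input reads tested 45 bins and called 2 with pR-Ea (13.5% of all bins in that setting), 10 in pPGK PMA_I (24.3%), 3 with pPGK (17.9%) and 10 with SCP1 (26.6%). It called 13 for pR-Ea against SCP1 (27.4%), 15 for pR-Ea against pPGK (22.3%), 11 for pPGK against SCP1 (27.8%) and 1 for pPGK PMA_I against pPGK (4.49%). A minimum of 200 left no receptor bin. A grid shifted by 250 bp tested 12 bins and called 1 with pPGK (13.4%) and 4 for pPGK against SCP1 (12.9%). Without the top position's reporter reads 1 was called with pPGK (16.9%), Tcra and Tcrd bin 3 below input (-1.02), and 5 for pR-Ea against SCP1 (18%). A 1.5-fold threshold called 3 with pR-Ea (29.1%), 10 in pPGK PMA_I (41.2%), 7 with pPGK (35.6%) and 6 with SCP1 (39.9%), and 5 (39.9%), 6 (35.2%), 4 (33.7%) and 1 (9.26%) in the comparisons in the order above. With each line judged by its own mapping quality 1 was called for pR-Ea against pPGK (12.8%).

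The following were chosen after seeing the data. Counting every listed line called 1 bin with pPGK. Removing the mapping quality filter called 10 in pPGK PMA_I (35.7%), 1 with pPGK (14.8%), 1 for pR-Ea against pPGK (13.8%) and 1 for pPGK PMA_I against pPGK (9.51%), where the window's difference was 0.61. Plus strand fragments alone gave the window 1.70 in pPGK PMA_I and a difference from pPGK of 0.72, and minus strand fragments a difference of 0.14. In all, 71 of the recomputed counts stayed within 1.5 times and 33 did not. Of the window values, 106 moved by no more than the half-width of their counting interval, 13 moved by more and 1 changed sign. The other input minimums changed only the totals used for scaling, so they could hardly move the window. Counting distinct positions moved every window value except that with pPGK by more, or changed its sign.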
